A study of Bos taurus with 10 samples.

Results

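The genes described here are 5 genes of the collagen matrix of the dermis, COL1A1, COL1A2, COL3A1, SPARC and DCN. They were taken from the deposited count table by Ensembl identifier, and all 5 were among the 7052 genes in the table. The pairing of identifier and symbol came with the list and was not checked against an annotation. The libraries came from biopsied skin of Brangus, a cattle breed (Bos taurus in the labels) derived from Brahman and Angus, in a study of heat-stressed against control animals. Of the 10 libraries, 5 carry Ctrl in their titles and 5 carry Strs. The disease state entry reverses this: there the 5 libraries with Ctrl in the title are heat-stress cases, and those with Strs are controls. Groups are named here by title only (Ctrl-titled, Strs-titled). Fold changes have the Strs-titled group in the numerator, and which direction corresponds to heat stress is not settled. All animals are of the same breed and the tissue is skin in every library. Age, sex, body site, and the length and degree of the heat exposure are not stated in the labels. Whether every library is a separate animal is not spelled out either, and the p-values then reflect only the variation among these samples, which may be technical.

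Collagen fibres give the dermis its tensile strength and are laid down mainly by fibroblasts. COL1A1 and COL1A2 encode the alpha chains that assemble into type I collagen, the main fibrillar collagen of skin, and COL3A1 encodes the chain of type III collagen, which forms mixed fibrils with type I. SPARC encodes a secreted glycoprotein that binds collagen and takes part in fibril assembly, and DCN encodes decorin, a small leucine-rich proteoglycan that coats collagen fibrils and influences their diameter.

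A Ctrl-titled library summed to 490752 to 659756 counts over the table, and a Strs-titled library to 2453542 to 8051190. Levels are given as CPM, a gene's count scaled to this table total, so genes outside the table do not enter them. The 5 genes were well covered, from 185 counts for DCN in Ctrl-titled replicate 4 to 23238 counts for COL3A1 in Strs-titled replicate 5. Every Strs-titled library had a higher table total than every Ctrl-titled one and no label gives a batch, so effects of group, library preparation and read processing cannot be told apart. Strs-titled replicate 5 had the lowest table total of its group, 2453542 counts against at least 6701794 in the other 4 libraries, and results that rest on it are given with and without it. Levels are not corrected for gene length and are compared between libraries, not between genes. In whole biopsies, fewer cells of a type and less RNA per cell cannot be told apart.

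The 3 collagen transcripts were evenly abundant in Ctrl-titled libraries and widely scattered in Strs-titled libraries, where 4 of 5 libraries lay below the whole Ctrl-titled range and replicate 5 lay above it. SPARC had a similar order of Strs-titled libraries over a narrower range that overlapped the Ctrl-titled values. DCN was higher in every Strs-titled than in every Ctrl-titled library. Only DCN passed the test between groups (quasi-likelihood F test of edgeR, with p under 0.05 after Benjamini-Hochberg adjustment over 7047 genes). That is 1 of 5 genes higher in Strs-titled libraries and 0 of 5 lower, against 67.8% of all genes tested that were called, 35.6% higher and 32.2% lower.

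COL1A1 (ENSBTAG00000013103) stood at 6910, 4190, 6438, 4980 and 5073 CPM in Ctrl-titled replicates 1 to 5. In Strs-titled replicates 1 to 5 it stood at 508, 376, 1526, 1700 and 8903 CPM. Strs-titled replicate 5 was thus the highest of all 10 libraries, and the other 4 libraries of its group were below every Ctrl-titled library. The means were 5518 CPM ± 1122 (SD, n = 5) and 2603 CPM ± 3571 (SD, n = 5), and the SD of the Strs-titled group exceeded its mean. The fitted log2 fold change was -1.23 ± 0.75 (SE; adjusted p = 0.17, edgeR), so the difference did not pass the test with all libraries.

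COL1A2 (ENSBTAG00000013472), the partner chain of type I collagen, followed a similar order. It had 5192, 2959, 5046, 3286 and 4192 CPM in Ctrl-titled replicates 1 to 5. The Strs-titled values were 626, 416, 1627, 1379 and 6107 CPM. Replicate 5 was again the highest of the 10 libraries and replicate 2 the lowest. The log2 fold change was -1.17 ± 0.62 (SE; adjusted p = 0.12, edgeR).

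COL3A1 (ENSBTAG00000021466) had 8350, 5310, 7159, 5385 and 4474 CPM in Ctrl-titled replicates 1 to 5. It had 909, 411, 2025, 2149 and 9471 CPM in Strs-titled replicates 1 to 5, which span a 23.1-fold range, against 1.87-fold in the Ctrl-titled group. For COL3A1 too, replicate 5 lay above every Ctrl-titled library and the other 4 Strs-titled libraries lay below all of them. The log2 fold change was -1.18 ± 0.69 (SE; adjusted p = 0.15, edgeR).

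SPARC (ENSBTAG00000014835) varied little in the Ctrl-titled group, at 1579, 1364, 1580, 1131 and 1540 CPM in replicates 1 to 5. In the Strs-titled group it had 1183, 848, 1714, 2351 and 4481 CPM. Strs-titled replicate 2 was the lowest of the 10 libraries and replicates 3, 4 and 5 were the highest, so the groups overlapped on both sides. The log2 fold change was 0.43 ± 0.36 (SE; adjusted p = 0.31, edgeR).

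DCN (ENSBTAG00000003505) had 391, 394, 429, 317 and 673 CPM in Ctrl-titled replicates 1 to 5. Its Strs-titled values were 929, 1156, 1700, 1438 and 1349 CPM, all above the highest Ctrl-titled value. It was the 1 gene of the 5 without overlap between the groups; the lack of overlap was found for 53.5% of all genes tested, for 30.1% with the Strs-titled group higher and for 23.4% with it lower. The means were 441 CPM ± 136 (SD, n = 5) and 1314 CPM ± 291 (SD, n = 5). The log2 fold change was 1.46 ± 0.23 (SE; adjusted p = 5.7e-05, edgeR), a 2.75-fold higher level in Strs-titled libraries, and 1300 of the 7047 genes tested had a higher fold change. DCN had the fewest counts of the 5 genes in Ctrl-titled libraries. There, counting error alone gave the relatively widest 95% Poisson interval in replicate 4, 273 to 366 CPM around 317 CPM.

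**Figure D1:**
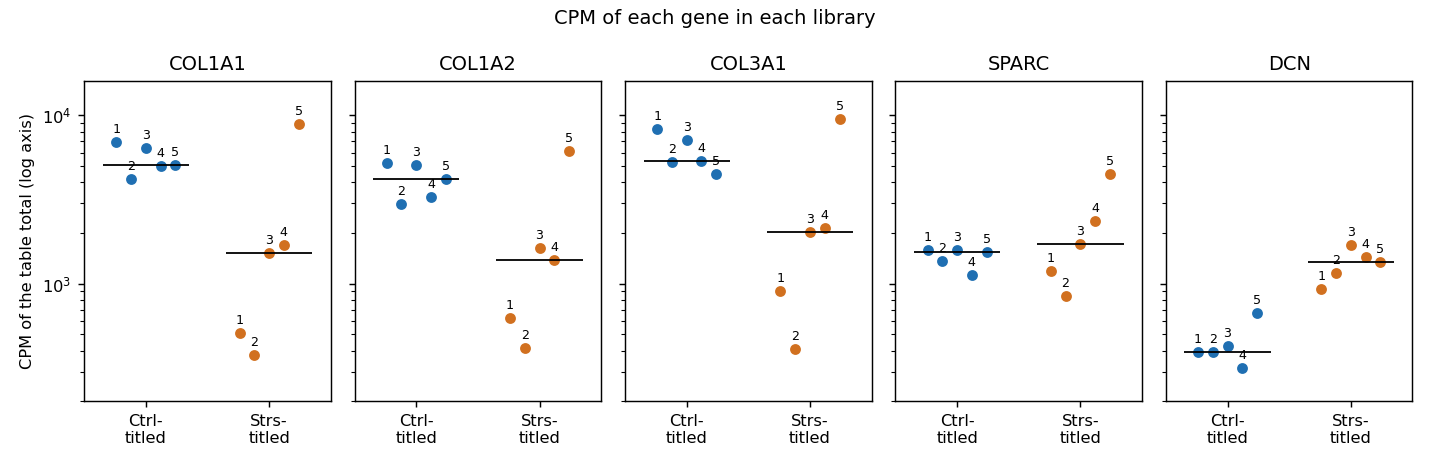
Level of each gene in each library, in CPM of the table total on a log axis; numbers are replicate numbers and bars are group medians. In the Strs-titled group the 3 collagens run from 376 to 9471 CPM, with replicate 5 at the top, whereas DCN lies between 929 and 1700 CPM, above all Ctrl-titled libraries.

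The result for the collagens turned on 1 library, Strs-titled replicate 5. That library stands out by the collagen values themselves, so p-values without it hold only given its removal. With any other single library left out, the 3 collagens were not called (edgeR adjusted p 0.12 to 0.3). Without Strs-titled replicate 5, COL1A1 averaged 1027 CPM ± 682 (SD, n = 4) in the Strs-titled group and its highest value there was 1700 CPM, below the lowest Ctrl-titled value of 4190 CPM. The log2 fold changes without it were -2.53 for COL1A1 (SE 0.44, edgeR adjusted p = 0.00023), -2.14 for COL1A2 (SE 0.39, edgeR adjusted p = 0.00029) and -2.27 for COL3A1 (SE 0.44, edgeR adjusted p = 0.00055). All 3 collagens were thus called lower in the remaining Strs-titled libraries, by 4.41-fold to 5.78-fold, where 32% of the 6972 genes tested were called lower and 66.8% in either direction. SPARC moved to -0.02 (SE 0.28, edgeR adjusted p = 0.95), a change of sign of a value that passed in neither fit. DCN stayed at 1.47 (SE 0.25, edgeR adjusted p = 0.00017).

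**Figure D2:**
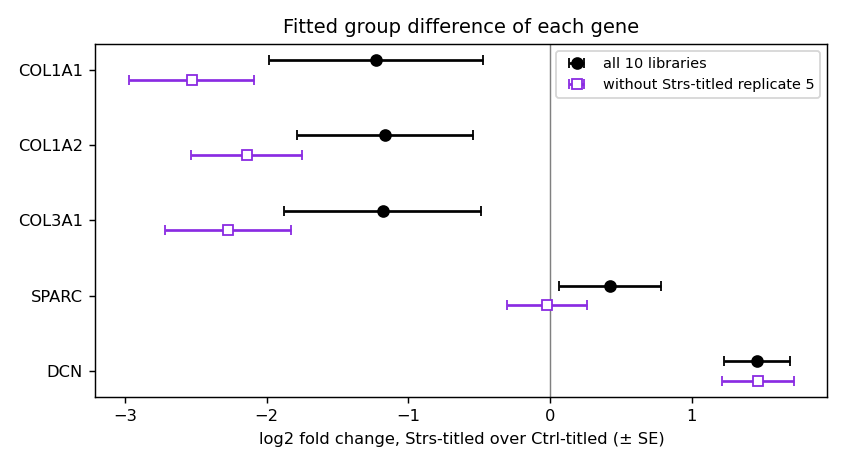
Fitted log2 fold change of each gene, Strs-titled over Ctrl-titled, with bars of 1 SE, for all 10 libraries (filled) and without Strs-titled replicate 5 (open). The 3 collagens move from about -1.2 to between -2.53 and -2.14, SPARC from 0.43 to -0.02, and DCN stays near 1.46.

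The call for the collagens also depended on the tool with all 10 libraries. On the mean of log2 CPM, which weights libraries equally on the log scale, the groups differed by -2.01 for COL1A1, -1.64 for COL1A2 and -1.79 for COL3A1. limma voom, which fits log values, called all 3 lower, at -2.10 (adjusted p = 0.014), -1.74 (adjusted p = 0.015) and -1.88 (adjusted p = 0.018), where it called 30.4% of all 7047 genes lower and 60.5% in either direction. DESeq2 called only COL1A2 (log2 fold change -1.20, adjusted p = 0.047) and gave an adjusted p of 0.14 for COL1A1 and 0.062 for COL3A1, where it called 33.7% of 7037 genes lower and 69.8% in either direction. SPARC passed with none of these tools and DCN passed with each of them.

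The spread between libraries of the Strs-titled group set the collagens apart from most genes in size. The SD of log2 CPM over the 5 Strs-titled libraries was 1.80 for COL1A1, 1.49 for COL1A2 and 1.68 for COL3A1, against a median of 0.35 over all genes tested, and 98.4% to 99.0% of genes had a smaller SD. SPARC, at 0.93, was above 92.6% of genes, and without Strs-titled replicate 5, at 0.64, above 83.4%. DCN, at 0.33, was above 45.9% of them, and without that library, at 0.38, above 58.2%. In the Ctrl-titled group the 5 genes had SDs of 0.21 (SPARC) to 0.40 (DCN), each below the median of 0.44 over all genes. The SDs were not compared at matched level or table total, so counting error enters them unequally. Without replicate 5 the Strs-titled SDs were 1.10 for COL1A1, 0.93 for COL1A2 and 1.12 for COL3A1, still larger than those of 93.0% to 95.6% of genes, with replicates 1 and 2 below replicates 3 and 4. No label names a property that divides the Strs-titled libraries in this way.

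**Figure D3:**
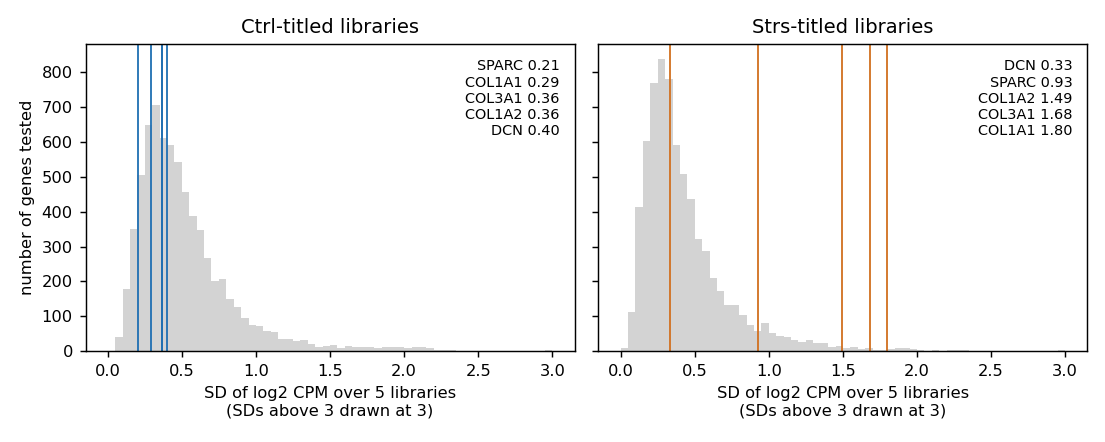
Number of genes by SD of log2 CPM over the 5 libraries of each group (grey), with the 5 collagen matrix genes as vertical lines and their SDs listed. In Ctrl-titled libraries all 5 lie at 0.40 or below, and in Strs-titled libraries the 3 collagens lie at 1.49 to 1.80, in the upper tail.

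The collagens varied together. Profiles were compared as log2 CPM minus the gene's own mean over the 10 libraries, and the distance between 2 genes was the root-mean-square difference of their profiles. COL3A1 was the nearest of 7046 genes to COL1A1, at 0.25, and COL1A2 was the second nearest, at 0.30. COL3A1 was likewise the nearest to COL1A2, at 0.27, with COL1A1 second. The 3 genes were thus each other's closest profiles among all genes compared, and the closest other gene stood at 0.64 from COL1A1, 0.51 from COL1A2 and 0.61 from COL3A1. No other gene of 7042 was within 0.5 of any of the 3 collagens, whereas 126 were within 0.5 of SPARC and 753 within 0.5 of DCN. This measure is a description over 10 libraries that share their group, total and spread, and it carries no test.

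By the same measure, SPARC and DCN lay farther from the collagens than the collagens did from each other. SPARC ranked 987th from COL1A1, at 1.31, and DCN ranked 5327th, at 2.11, beyond the median distance of 1.72 over all genes. SPARC was closer to DCN (0.85) than to any of the 3 collagens (1.07 to 1.31). Among the distances from SPARC, DCN ranked only 2699th, and the 3 collagens ranked farther still, 4360th to 5306th. Among the distances from each collagen, SPARC ranked 786th to 987th, which is a rank in a different list. As distances are not scaled for spread, this order does not show that SPARC shared the pattern of DCN. Compared with the mean profile of the 5 genes, the 2 nearest other genes were ENSBTAG00000044027, at 0.23, and ENSBTAG00000010793, at 0.24. That mean joins the collagens with DCN, which differed between groups in the other direction, so nearness to it is not nearness to a collagen. The mean level of ENSBTAG00000044027 was 61.3 CPM ± 10.2 (SD, n = 5) in the Ctrl-titled group and 44.5 CPM ± 28.9 (SD, n = 5) in the Strs-titled group. For ENSBTAG00000010793 these means were 296 CPM ± 87.4 (SD, n = 5) and 229 CPM ± 210 (SD, n = 5). Neither passed the group test (edgeR adjusted p = 0.18 and 0.43), and what they encode was not analysed here.

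**Figure D4:**
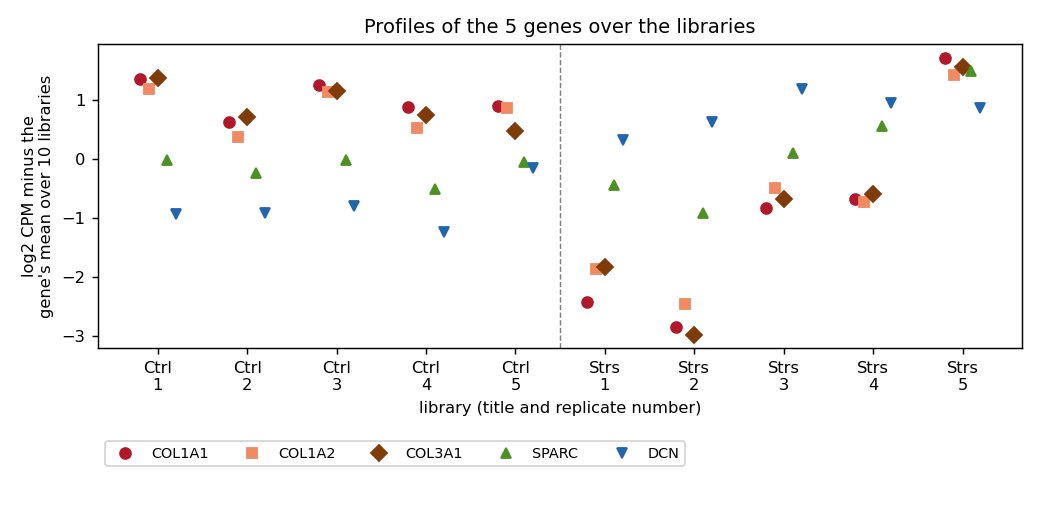
Profile of each gene over the 10 libraries, as log2 CPM minus the gene's mean over all libraries; the dashed line divides the groups. The symbols of the 3 collagens lie close together in every library. SPARC orders the Strs-titled libraries as COL1A1 and COL3A1 do, over a narrower range. DCN lies above 0 in all Strs-titled libraries and below 0 in all Ctrl-titled libraries.

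Ratios of 2 genes within a library do not depend on how libraries are scaled, and they show whether the genes differed between groups by the same factor. The ratio of COL1A1 to COL1A2 counts ranged over 1.21 to 1.52 in the Ctrl-titled and over 0.811 to 1.46 in the Strs-titled group. Its group means of log2 ratio differed by -0.37 (exact permutation test, two-sided, p = 0.0794; 0.0992 when adjusted by Benjamini-Hochberg over the 10 pairs), which did not pass with all libraries. Without Strs-titled replicate 5 the difference was -0.49 and passed (adjusted exact permutation p = 0.0397). It did not pass with any other single library left out. COL1A1 to COL3A1 differed by -0.22 (exact permutation p = 0.214, adjusted 0.238) and COL1A2 to COL3A1 by 0.15 (exact permutation p = 0.429, adjusted 0.429). Across a 23.7-fold range of COL1A1 in the Strs-titled group, the ratios among the 3 collagens thus stayed within 0.558 to 1.46.

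The ratios of collagens to SPARC and to DCN differed between groups. COL1A1 to SPARC was 3.07 to 4.40 in the Ctrl-titled group and ranged over 0.429 to 1.99 in the Strs-titled group, with no overlap and replicate 5 included. The difference of the mean log2 ratio was -2.33 (exact permutation p = 0.00794, which 5 against 5 libraries cannot go below; adjusted 0.0159). COL1A1 to DCN was 7.53 to 17.6 against 0.325 to 6.60 in the same order of groups, with the highest Strs-titled value, that of replicate 5, close to the lowest Ctrl-titled value. The difference of the mean log2 ratio was -3.60, or 12.2-fold, the largest of the 10 pairs (exact permutation p = 0.00794, adjusted 0.0159). COL3A1 to DCN differed by -3.38 (exact permutation p = 0.0159, adjusted 0.0227), and here Strs-titled replicate 5, at 7.02, passed the lowest Ctrl-titled library, at 6.64. Without replicate 5 that difference was -3.98 (adjusted exact permutation p = 0.0227).

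Relative to DCN, SPARC was also lower in Strs-titled libraries, with a difference of -1.27 (exact permutation p = 0.0159, adjusted 0.0227). The groups overlapped through Strs-titled replicate 5, at 3.32, since the other 4 reached at most 1.63 and the lowest Ctrl-titled ratio was 2.29. Without replicate 5 the difference was -1.58 (adjusted exact permutation p = 0.0227). Of the 10 pairs, 7 had an adjusted p under 0.05 and 5 did not overlap. Most pairs of genes in this table behave that way: over all 24826581 pairs of tested genes, 68.1% had an exact permutation p under 0.05 before adjustment and 52.4% did not overlap. The count of 7 of 10 is therefore near the background and is no result about these genes as a list. Because the 7 pairs share genes, they are not 7 separate results.

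**Figure D5:**
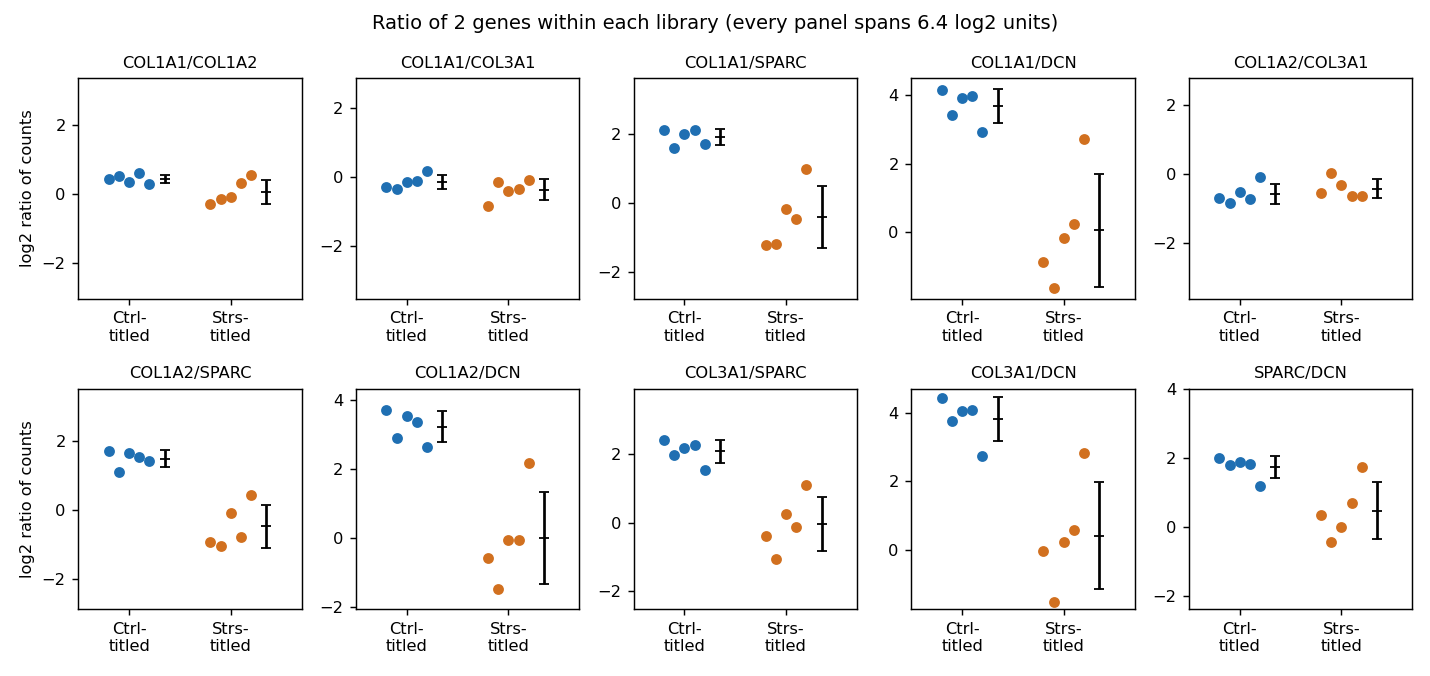
Log2 ratio of the counts of 2 genes within each library for all 10 pairs, with group means and SD (n = 5) beside the points. Pairs among COL1A1, COL1A2 and COL3A1 stay within narrow ranges, whereas ratios of a collagen to SPARC or DCN have a lower mean in Strs-titled libraries. For COL3A1 to DCN the groups overlap.

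The 5 genes together took 2.24%, 1.42%, 2.07%, 1.51% and 1.60% of the table total in Ctrl-titled replicates 1 to 5, with exact Clopper-Pearson 95% intervals that ran from 1.39% to 2.28% over these libraries. In Strs-titled replicates 1 to 5 they took 0.415%, 0.321%, 0.859%, 0.902% and 3.03%, with intervals from 0.317% to 3.05%. Strs-titled replicate 5 held the largest share of the 10 libraries. The other 4 of its group were below every Ctrl-titled library. The Strs-titled mean was 1.11% ± 1.11 (SD, n = 5) and fell to 0.624% without replicate 5. Intervals cover counting error only. The median log2 fold change of the 5 genes, which lay on both sides of 0, was -1.17, beside 0.11 over all genes tested. Without Strs-titled replicate 5 these medians were -2.14 and 0.09. With all libraries, the quartiles of log2 fold change over all genes tested were -1.01 and 1.14. Of the 7047 genes tested, 1528 had a lower fold change than COL1A1, 1571 than COL3A1 and 1584 than COL1A2.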

How the data were processed

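Whole-number read counts per Ensembl gene were deposited by the authors without normalization, in 1 table with a column for each of the 10 libraries. Build ARS-UCD1.2, the aligner STAR, featureCounts, fastp 0.12.5, FastQC and DESeq2 1.26.0 are listed, without roles, per the submitters' processing notes. Libraries did not keep the strand, per the labels' protocols, so overlapping antisense genes cannot be told apart. How genes were selected for the table, the annotation release and the counting settings are not stated there. The name given to the deposited counts includes sin ceros and sin RP, Spanish for without zeros and without RP. Which genes were left out on these grounds was not checked.

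Genes were filtered with filterByExpr (7047 of 7052 kept), scaled with TMM and compared by group in edgeR 4.0.16 (R 4.3.3; robust quasi-likelihood F test, two-sided, no covariate), with Benjamini-Hochberg adjustment over all genes tested. A change is an adjusted p under 0.05, and the SE is the size of the log2 fold change divided by the square root of F. The fit was tested on simulated data. Profiles used log2 CPM with a prior count of 2, and ratios had 0.5 counts added to each gene. Ratios were tested by exact permutation over 252 divisions of the libraries (scipy 1.17.1). Alternatives used DESeq2 1.42.0, limma 3.58.1, other scaling factors, other filters, a replicate block and each library left out. No 2 libraries of a group were copies: chi-square per degree of freedom was at least 4.00.

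The members and lists were chosen with earlier results of these data known. All 5 genes are named, with the 2 other genes (mean of at least 20 counts) whose profile over the libraries was nearest to the mean of the 5. Lists of other matrix genes and of cell type markers were drawn up by symbol, but 0 identifiers of the table could be paired with a symbol from the gene table used here, so they, and a check of the tissue against its markers, are not analysed here. Sequences and coordinates are not reported.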

Additional observations from a re-analysis of the deposited data

Results flagged for a closer look

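Among 32 groups of 5 values checked, 5 had a single library far apart from the remaining 4. Far apart means a gap to the next library above 0.71 of the range of the group. Chance alone gives about 1 in 20 groups if values are normally distributed, and these values share genes and libraries. Levels and shares were checked as CPM and percent and not on the log scale. On log2 CPM, COL1A1 stood at 13.1 in Strs-titled replicate 5, 10.7 in the next library and 8.56 in the lowest of that group. On that scale the gap was below 0.71 of the range for COL1A1, COL1A2 and COL3A1 alike. In Strs-titled replicate 5, COL1A1 stood at 8903 CPM, against 1700 CPM in the next library of its group. COL1A2 stood at 6107 CPM in it, against 1627 CPM, and COL3A1 at 9471 CPM, against 2149 CPM. The summed share of the 5 genes was 3.03% there, against 0.902% in the next library. The fifth value belongs to the other group: the log2 ratio of SPARC to DCN was 1.19 in Ctrl-titled replicate 5, against at least 1.79 in the other 4 libraries. SPARC in that library, at 1540 CPM, lay within the range of its group, and DCN, at 673 CPM, was the highest of it. Strs-titled replicate 5 also had the lowest table total of its group, and the part of this in its collagen values was not tested.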

How the results depend on the processing

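DCN kept its direction and passed in all 23 alternatives (log2 fold change 1.39 to 1.66, adjusted p 6.7e-09 to 0.00063). The 3 collagens stayed negative in all 23 and passed in 3 (COL1A1, COL3A1) or 4 (COL1A2) of them. limma voom gave -2.10, -1.74 and -1.88 for COL1A1, COL1A2 and COL3A1, and DESeq2 gave -1.20 for COL1A2. The replicate block gave -2.22 (adjusted p = 0.021), -1.81 (adjusted p = 0.012) and -2.01 (adjusted p = 0.034); it called 4568 genes, against 4775 without it. The replicate numbers are not known to pair the libraries: after subtracting group means, libraries with the same number had correlations of -0.082 to 0.027, and 1 of 5 was closest to its own number. Leaving out 1 library gave -2.53 to -0.93 for COL1A1, -2.14 to -0.89 for COL1A2, -2.27 to -0.88 for COL3A1 and -0.02 to 0.64 for SPARC, whose sign turned only without Strs-titled replicate 5, to -0.0215. The COL1A1 to COL1A2 log2 ratio difference ran from -0.49 to -0.28, and the 7 pairs that passed did so without any 1 library. Without genes above 1% of any library in the total, the Ctrl-titled share of the 5 genes was 2.33%, against 1.77%. Over all genes the median log2 fold change was 0.11, and 0.27 with upper quartile factors. Thinning every library to 490752 counts (1 draw) and scaling factors computed without the 5 genes were chosen after seeing the data and changed no call of the 5 genes. The cause of these differences was not tested.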
